A study of Homo sapiens with 24 samples.

Results

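On an Affymetrix exon array a transcript cluster is the unit that stands for a gene or for a stretch of putative transcription, and its probe sets are graded by how well they are supported. The core grade rests on well-supported gene models, and the extended grade adds probe sets backed by weaker evidence such as single cDNAs. Clusters that exist only in the extended grade therefore hold untranslated tails, introns, antisense and intergenic RNAs, pseudogenes and stretches that no gene name covers. This account describes the extended-only clusters with a clear signal in a pair of B cell precursor acute lymphoblastic leukemia lines. Clusters were chosen by their level: a cluster was taken when it had no value in the core summaries, a value in all 12 extended arrays and a mean over those 12 arrays of at least 8 log2 units. Of 133672 extended clusters 111661 were extended-only, and 14267 of these (12.8%) reached the level.

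Both lines, MHH-CALL4 and MUTZ-5, are established, and each stands for 1 patient's leukemia grown in culture. Cells of each line received 500 nM JQ1, which displaces BET bromodomain proteins from acetylated chromatin, or its solvent DMSO, for 8 hours. BET proteins help RNA polymerase II leave promoters and enhancers, and transcripts that depend on strong enhancers are known to fall first when they are displaced. The 4 groups are MHH-CALL4 with DMSO, MHH-CALL4 with JQ1, MUTZ-5 with DMSO and MUTZ-5 with JQ1, with 3 arrays each. The labels name no transgene or knockout in either line, and leave unsaid if the 3 samples per group came from separate cultures, so p-values measure only the spread between these samples. Values are RMA log2 values of the extended summaries, and group values below are the mean ± SD of 3 arrays.

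Of the 14267 clusters, 1402 carry 1 gene symbol (1227 genes), 313 carry several and 12552 (88.0%) are not listed in the array annotation used here. By RefSeq type most of the named ones belong to protein-coding genes (1146 clusters), followed by long non-coding RNAs (168) and pseudogenes of several types. Of the named clusters 533 share their gene with a core cluster. For the remaining 869, no core cluster with 1 symbol carries that gene.

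The median of all extended clusters lay between 6.37 and 6.43 in every array, and that of the 14267 between 8.61 and 8.77. The leading component of the variation within groups (37.3% of it) set MHH-CALL4 JQ1 replicate 3 (score 0.49) against MUTZ-5 DMSO replicate 3 (score -0.53). The cell type labels were checked with markers taken at their brightest cluster. Of 12 B lineage markers 11 lay at 8 or above, with a median of 11.64, among them DNTT (12.92), EBF1 (12.67) and PAX5 (11.99), and RAG1 lay below at 7.58. Markers of T and NK cells (median 6.54, 3 of 12 at the level, CD7 highest), myeloid cells (7.45, 3 of 8), erythroid cells and megakaryocytes (6.59, 1 of 5) and stroma (6.88, 3 of 7) were lower. The median of the B lineage list was 11.92 and 11.81 in MHH-CALL4 under DMSO and JQ1 and 11.74 and 11.48 in MUTZ-5. Of its members CD72 went from 10.30 to 8.89 and from 9.34 to 8.36, VPREB1 from 10.76 to 9.81 and from 9.62 to 8.60, and VPREB3 stood at 12.03 in MHH-CALL4 and 9.30 in MUTZ-5 under DMSO. The part of these markers in the results below was not tested. Across the 4 groups the median of the T and NK cell list ran from 6.52 to 6.55, of the myeloid list from 7.39 to 7.53 and of the erythroid list from 6.56 to 6.62. For stroma it ran from 6.77 in MHH-CALL4 with DMSO to 6.97 in MUTZ-5 with JQ1. As a guide to what a value of 8 means, 34 of 38 genes that all cells use reached it (89.5%), against 10 of 307 genes of other tissues (3.3%). These lists too were read at the brightest cluster of each gene, core clusters included, so the guide is not particular to extended-only clusters. No detection call or background level comes with these values, so the label "expressed" rests on this contrast alone.

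The sequences that carry the descriptions below are of 2 kinds. MicroRNAs are short RNAs that pair with messenger RNAs through their seed, and MIR142, whose products mark blood cells, lay highest of the 12 microRNA genes among these clusters. RefSeq (GRCh38.p14) held mature forms for 11 of the 12, 21 in all, and no seed was shared between genes. The mature forms of the 3 microRNA genes with the highest values are shown, with the seed (bases 2 to 8) in capitals. They are miR-142-3p (chr17:58331245-58331267, minus strand) and miR-142-5p (chr17:58331283-58331303, minus strand), miR-622 (chr13:90231242-90231262, plus strand), and miR-197-5p (chr1:109598901-109598923, plus strand) and miR-197-3p (chr1:109598940-109598961, plus strand).
hsa-miR-142-3p: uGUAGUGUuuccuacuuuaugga
hsa-miR-142-5p: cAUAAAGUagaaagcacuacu
hsa-miR-622: aCAGUCUGcugagguuggagc
hsa-miR-197-5p: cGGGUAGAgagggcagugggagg
hsa-miR-197-3p: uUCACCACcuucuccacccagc

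Promoters are shown for genes whose clusters moved the same way under JQ1 in both lines. Of 12 genes that the naming rule reached in both lines, 6 had a promoter in the RefSeq table (GRCh38.p14): LINC00426, which fell, and IFFO2, PPM1L, ZSWIM6, H2BC9 and TXNDC16, which rose. The 250 bases before the start of 3 of them are printed 5′ to 3′, with motif matches in capitals. They are LINC00426 (chr13:30373915-30374164, minus strand), ZSWIM6 (chr5:61332008-61332257, plus strand) and TXNDC16 (chr14:52552506-52552755, minus strand).
LINC00426: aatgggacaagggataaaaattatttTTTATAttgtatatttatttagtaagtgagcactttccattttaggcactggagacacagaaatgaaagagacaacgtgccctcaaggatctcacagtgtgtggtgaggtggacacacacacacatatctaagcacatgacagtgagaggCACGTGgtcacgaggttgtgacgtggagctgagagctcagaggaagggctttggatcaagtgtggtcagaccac
ZSWIM6: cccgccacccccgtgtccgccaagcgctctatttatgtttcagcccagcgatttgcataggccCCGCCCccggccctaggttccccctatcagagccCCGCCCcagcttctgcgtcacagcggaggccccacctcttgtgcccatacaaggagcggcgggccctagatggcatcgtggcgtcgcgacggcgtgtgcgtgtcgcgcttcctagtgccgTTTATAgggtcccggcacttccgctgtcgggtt
TXNDC16: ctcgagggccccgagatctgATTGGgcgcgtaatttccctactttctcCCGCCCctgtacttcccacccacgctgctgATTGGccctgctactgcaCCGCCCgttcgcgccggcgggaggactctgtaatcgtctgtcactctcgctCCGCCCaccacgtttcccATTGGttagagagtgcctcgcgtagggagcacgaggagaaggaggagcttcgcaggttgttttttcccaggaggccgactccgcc

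The motifs searched on both strands were the E-box CACGTG, which MYC and its partners can bind, the TATA box TATAAA, the CCAAT box CCAAT and the GC box GGGCGG. The LINC00426 window held 1 E-box and 1 TATA box, the ZSWIM6 window 1 TATA box and 2 GC boxes, and the TXNDC16 window 3 CCAAT boxes and 3 GC boxes. No matches overlapped in these windows. IFFO2 held 6 GC boxes and H2BC9 3 CCAAT boxes. Of all 35116 promoter windows of this length 6.3% hold the E-box, 10.7% the TATA box, 32.0% the CCAAT box and 42.6% the GC box. In the 1227 windows of 935 genes named here the shares were 8.4%, 5.8%, 32.6% and 65.6%. Windows of genes with a cluster that fell in MHH-CALL4 held the E-box in 8 of 70 cases (11.4%) and those with one that fell in MUTZ-5 in 5 of 36 (13.9%). Windows of genes with a rise held it in 0 of 29 and 3 of 29 (10.3%). The positions of the clusters on the array were not used here, so it is not known whether a cluster begins at the start that its window precedes.

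The level, which chose these clusters, is given as a description. Their median was 8.65 with quartiles of 8.28 and 9.22, so most lay just above the limit. Of the 14267, 4686 reached 9, 1289 reached 10, 304 reached 11 and 52 reached 12. In 10987 all 4 group means were at 8 or above, and in 3280 between 1 and 3 group means were. In 677 of these both groups of 1 line were below 8. The residual SD between arrays of a group had a median of 0.214, against 0.109 in the 11996 core clusters at the same level and 0.324 in extended-only clusters below it. Among the clusters with 1 symbol it was 0.157. Closest to the limit, FBXO48, LINC02106 and RSPO4 lay just inside and S100A13, FAM162A and RHBDF1 just outside, all at 8.00 after rounding.

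**Figure D1:**
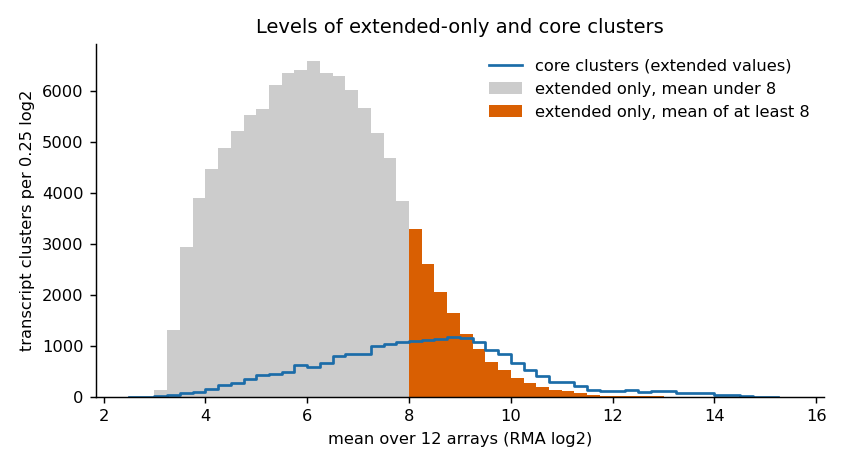
Number of transcript clusters (y axis, per 0.25 log2) by mean over the 12 extended arrays (x axis, RMA log2). Extended-only clusters at 8 or above (orange, 14267) form the upper tail of the extended-only clusters (grey below 8), whereas core clusters (blue line, extended values) have a median of 8.23.

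Values of different clusters depend on their probes, so their order is not an order of transcript amounts. The value at the top among those with 1 symbol belonged to MALAT1, an abundant nuclear long non-coding RNA, with means of 14.24 ± 0.12 and 14.22 ± 0.076 in MHH-CALL4 under DMSO and JQ1 and 14.26 ± 0.022 and 14.20 ± 0.055 in MUTZ-5. Its 12 arrays spanned 14.11 to 14.36 and no comparison called it. CBX5, which encodes the heterochromatin protein HP1 alpha, followed at 12.93, the long non-coding RNA LINC00342 at 12.79, the nucleosome-binding protein HMGN2 at 12.62 and the ribosomal protein RPS2 at 12.48. HMGN2, RPS2 and RPS3A (12.26) have many near-copies in the genome, so probes named for them can read other copies. PRDM15 (12.42), STRN (12.13), SPN (12.08) and SETDB2 (11.97) complete the 10 with the highest values. Of these 10, SPN, the sialophorin CD43 of leukocytes, was the one called in both JQ1 comparisons and between the lines. Its cluster at 12.08 had values of 12.98, 13.07 and 12.88 in MHH-CALL4 with DMSO, 12.40, 12.18 and 12.12 with JQ1, 11.77, 12.04 and 11.96 in MUTZ-5 with DMSO and 11.13, 11.24 and 11.23 with JQ1. It fell by 0.74 in MHH-CALL4 (adjusted p = 0.012) and by 0.72 in MUTZ-5 (adjusted p = 0.021), and was lower by 1.05 in MUTZ-5 under DMSO (adjusted p = 0.00065). PRDM15 fell by 0.73 in MHH-CALL4 (adjusted p = 0.015), and SETDB2 was higher by 0.70 in MUTZ-5 (adjusted p = 0.012). Among clusters with no symbol, 2550508 (14.07) and 3820209 (13.34) had the highest values, and neither was called.

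The comparison of JQ1 with DMSO in MHH-CALL4 asks which of these clusters respond to BET inhibition. In this line 741 of the 14267 were called (limma, adjusted p under 0.05 over all 133672 clusters), 224 higher and 517 lower. Over all clusters tested the call rate was 2.81% (0.923% higher, 1.88% lower), against 5.19% here and 9.04% in core clusters at the same level, whose residual SD was smaller. Changes of at least 2-fold were called in 71 clusters that rose and 249 that fell, where 0.357% and 0.786% of all clusters did. The median change was 0.046 log2 here and 0.019 over all clusters. Unnamed clusters, 88.0% of the 14267, held 606 of the 741 calls. Their call rate was 4.83%, below the 7.92% of clusters with 1 symbol. In bulk RNA fewer cells of a type and less RNA per cell cannot be told apart. Leaving out 1 array gave between 350 and 869 calls. The count fell by more than 1.5 times without MHH-CALL4 DMSO replicate 1 (407), 2 (350) or 3 (408) and without JQ1 replicate 2 (416) or 3 (434), and decreases remained 66.4% to 84.1% of calls.

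The falls with 1 symbol in MHH-CALL4 were led by a pseudogene, non-coding RNAs and an endogenous retroviral gene. USP41P, a pseudogene of a ubiquitin-specific protease, had values of 11.46, 11.60 and 11.54 under DMSO and 8.64, 8.91 and 8.64 under JQ1. The groups did not overlap, and the fall was 6.98-fold (2.80 log2, SE 0.15, adjusted p = 1.0e-05). LINC01226, an intergenic RNA, went from 11.16, 11.04 and 11.12 to 8.60, 8.75 and 8.41 and fell 5.73-fold (2.52 log2, SE 0.14, adjusted p = 1.3e-05). ERVH48-1, a gene derived from a retroviral envelope, fell from 10.36 ± 0.055 to 8.22 ± 0.10 (4.41-fold, adjusted p = 2.7e-05). LINC00977 fell from 9.14 ± 0.11 to 7.02 ± 0.27 (4.35-fold, adjusted p = 0.00038). LINC00426, whose promoter is printed above, was measured by a pair of clusters: one fell from 11.64 ± 0.081 to 9.72 ± 0.11 (adjusted p = 2.6e-05) and the other from 10.46 ± 0.10 to 9.10 ± 0.13 (adjusted p = 0.00046). Separation of the JQ1 from the DMSO values was a condition for naming a cluster, so it is no finding here.

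Further falls in MHH-CALL4 concerned coding genes and another nuclear RNA. PPARGC1B, a transcriptional coactivator of mitochondrial genes, fell by 1.58 (adjusted p = 0.0029). CLEC2D, a lectin-like ligand of a natural killer cell receptor, fell from values of 10.80, 11.07 and 10.88 to 9.48, 9.51 and 9.11 (1.55 log2, adjusted p = 0.00023). IKZF3, which encodes the lymphoid transcription factor Aiolos, fell by 1.53 (adjusted p = 0.0033), FIRRE, a long non-coding RNA of nuclear architecture, 2.82-fold (adjusted p = 0.00046) and ELFN2 by 1.48 (adjusted p = 0.00044). ELFN2 and PPARGC1B each have a further extended-only cluster, which changed by -0.39 and -0.79 and was not called. The clusters of LINC00977 and IKZF3 reached the mean of 8 through their DMSO groups, as their JQ1 means lay below 8 in both lines. The same holds for PXN-AS1 and for clusters 2997873, 3176437 and 2921193, which are named below.

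Increases in MHH-CALL4 were fewer. PPM1L, which encodes a metal-dependent protein phosphatase, had 7.47, 7.19 and 6.90 under DMSO and 9.87, 9.67 and 9.19 under JQ1, a 5.24-fold rise (2.39 log2, SE 0.36, adjusted p = 0.0064). Its DMSO means lay below 8 in both lines (7.19, and 6.52 in MUTZ-5), so it reached the level only through its JQ1 groups. RNU2-1, the U2 RNA of the spliceosome, rose 3.49-fold from 9.43 ± 0.15 to 11.23 ± 0.29 (adjusted p = 0.00065), and the histone gene H2BC9 3.29-fold from 9.06 ± 0.066 to 10.77 ± 0.20 (adjusted p = 0.00037). Both belong to families of near-identical copies, so these clusters can read more than 1 gene. FTX, a non-coding RNA, rose by 1.58 (adjusted p = 0.010), IRGM, a GTPase linked to autophagy, by 1.33 (adjusted p = 0.0013), the zinc finger gene ZSWIM6 by 1.26 (adjusted p = 0.00051), IFFO2, a relative of intermediate filament genes, by 1.03 (adjusted p = 0.0009) and the thioredoxin domain gene TXNDC16 by 0.88 (adjusted p = 0.0081). SPECC1 (0.92, adjusted p = 0.033) and FBXO33 (0.91, adjusted p = 0.045) complete the 10 largest rises. FTX and SPECC1 each have a further extended-only cluster, which changed by -0.02 and -0.5 and was not called. Leaving out MHH-CALL4 DMSO replicate 2 or 3, JQ1 replicate 2 or 3, MUTZ-5 DMSO replicate 1 or JQ1 replicate 2 ended the call of SPECC1 (adjusted p from 0.053 to 0.11). The call of FBXO33 was kept without MUTZ-5 DMSO replicate 2 or 3 and ended without any of the other 10 arrays (adjusted p from 0.054 to 0.15) and after median centring (0.051). Among clusters with no symbol, 2997873 fell most, from 10.19 ± 0.17 to 5.97 ± 0.37 (18.7-fold, adjusted p = 9.1e-06), followed by 3176437 (8.89-fold). The JQ1 value of 2997873 lies below the median of all clusters (6.38), so its fold is not exact. Clusters 2669928 (4.65-fold) and 2511400 (4.37-fold) rose most.

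**Figure D2:**
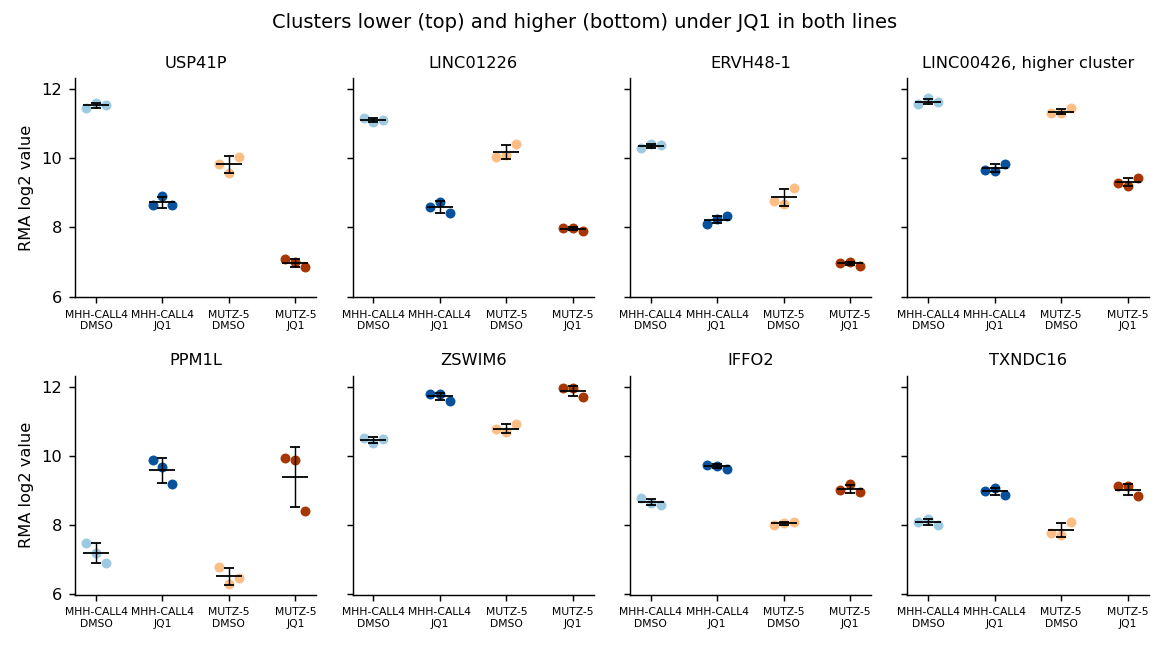
RMA log2 values (y axis) of 8 extended-only clusters in the 4 groups (x axis); points are arrays and the line with its bar is the mean ± SD of 3. In the upper row every JQ1 value lies below every DMSO value of its line, and in the lower row above it, with the MUTZ-5 JQ1 values of PPM1L spread from 8.40 to 9.94.

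The same comparison in MUTZ-5 gave fewer calls. Of the 14267 clusters 374 were called (2.62%), 126 higher and 248 lower, where 1.16% of all clusters were called, 0.347% higher and 0.813% lower. At least 2-fold changes were called in 44 that rose and 136 that fell (0.111% and 0.377% of all clusters). The median change was 0.023 log2, and 0.010 over all clusters. Leaving out 1 array gave 145 to 356 calls. The count fell by more than 1.5 times without MUTZ-5 DMSO replicate 1 (158) or 2 (219) and without JQ1 replicate 1 (178), 2 (145) or 3 (183). Without DMSO replicate 3 the excess of falls was gone, with 138 higher and 127 lower.

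USP41P had 9.84, 9.57 and 10.04 under DMSO in MUTZ-5 and 7.09, 7.0 and 6.86 under JQ1, and fell 7.14-fold (2.84 log2, SE 0.15, adjusted p = 5.4e-05). LINC01226 went from 10.04, 10.08 and 10.41 to 7.99, 7.98 and 7.91 (4.66-fold lower, adjusted p = 8.5e-05). Both started lower in MUTZ-5, and their differences of effects were -0.03 (SE 0.21, adjusted p = 0.99) and 0.30 (SE 0.19, adjusted p = 0.83). The clusters of LINC00426 fell by 2.04 (adjusted p = 6.2e-05) and 1.46 (adjusted p = 0.0005), ERVH48-1 by 1.91 (adjusted p = 0.00012) and LINC00977 by 1.78 (adjusted p = 0.0018). SLFN12L, a Schlafen family gene, fell from 8.84 ± 0.18 to 7.35 ± 0.086 (adjusted p = 0.00039), and its fall in MHH-CALL4 was 1.32 (adjusted p = 0.00046). IKZF3 fell by 1.36 (adjusted p = 0.010, and 0.058 without MUTZ-5 JQ1 replicate 2). RRP15, which serves ribosomal RNA processing, fell by 1.32 (adjusted p = 0.019, 0.059 without MUTZ-5 DMSO replicate 1 and 0.069 without DMSO replicate 3). LCP2, the adaptor SLP-76 of immune receptor signalling, fell from 9.98 ± 0.34 to 8.67 ± 0.080 (adjusted p = 0.0054). FIRRE fell by 1.15 (adjusted p = 0.0038).

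PPM1L rose most in MUTZ-5 among clusters with 1 symbol, from 6.78, 6.31 and 6.47 to 9.94, 9.87 and 8.40, a 7.37-fold increase (2.88 log2, SE 0.36, adjusted p = 0.0036). The lowest JQ1 value came from replicate 3 and still lay above all DMSO values. TXNDC16 rose by 1.17 (adjusted p = 0.0026), ZSWIM6 by 1.09 (adjusted p = 0.0021), IFFO2 by 1.01 (adjusted p = 0.0018) and the zinc finger gene ZNF878 by 0.99 (adjusted p = 0.0063). RNU2-1 rose by 1.16 (adjusted p = 0.015) and H2BC9 by 0.94 (adjusted p = 0.019), and each call was lost without 4 of the 6 MUTZ-5 arrays. For RNU2-1 these were DMSO replicates 1 and 2 and JQ1 replicates 2 and 3 (adjusted p from 0.058 to 0.077), and for H2BC9 DMSO replicates 1 and 2 and JQ1 replicates 1 and 2 (0.071 to 0.095). CLCN5, a chloride and proton exchanger gene, rose by 0.98 (adjusted p = 0.04) and the pseudogene LOC646214 by 0.96 (adjusted p = 0.036). The call of CLCN5 was kept without MHH-CALL4 DMSO replicate 1 or 2 or JQ1 replicate 3 and ended without any of the other 9 arrays (0.053 to 0.16). That of LOC646214 was kept without MHH-CALL4 DMSO replicate 2, JQ1 replicate 3 or MUTZ-5 DMSO replicate 3 and ended without the other 9 (0.051 to 0.14). YPEL2, a zinc-binding protein gene, rose by 0.91 (adjusted p = 0.011), and its call was lost without MUTZ-5 DMSO replicate 1, JQ1 replicate 1 or JQ1 replicate 3 (0.051 to 0.057). Among clusters with no symbol, 2554935 fell 8.91-fold and 2921193 8.03-fold, and 2410199 rose 3.25-fold (adjusted p = 0.0028).

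**Figure D3:**
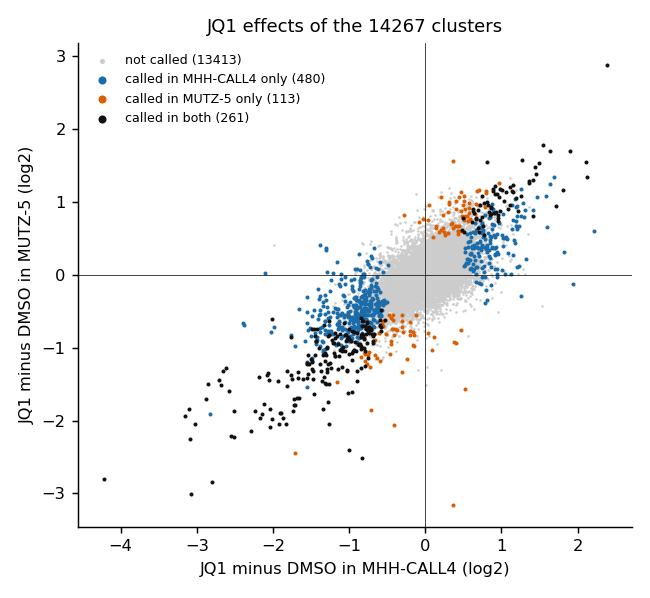
JQ1 minus DMSO (log2) of each of the 14267 clusters in MHH-CALL4 (x axis) and MUTZ-5 (y axis), each from 3 arrays per group. The 261 clusters called in both lines (black) lie at the lower left and upper right, 480 were called in MHH-CALL4 only (blue) and 113 in MUTZ-5 only (orange).

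The lines have their own DMSO arrays, so their JQ1 effects share no control. Their tests do share 1 variance per cluster over all 12 arrays, so calls in the lines are not independent. Of the falls, 193 were called in both lines, which is 37.3% of those in MHH-CALL4 and 77.8% of those in MUTZ-5. Of the rises 68 were called in both, 30.4% and 54.0%. In core clusters at the same level the shares were 44.4% and 87.1% of falls and 59.0% and 74.6% of rises, and over all clusters 30.1% and 69.6% of falls and 21.3% and 56.7% of rises. No cluster was called in both with opposite signs. Whether effects differed was tested directly: 8 of the 14267 were called for the difference (0.0561%, where 0.0359% of all clusters were), 5 with a more positive effect in MUTZ-5 (0.0262% of all) and 3 with a more negative one (0.00973% of all). None of the 8 carries a symbol. Of the clusters with 1 symbol 0 were called by limma, with 77 at an unadjusted p under 0.05. CLEC2D differed most clearly by p, with a fall of 1.55 in MHH-CALL4 and a difference of -0.31 in MUTZ-5, where its values went from 12.60, 12.59 and 12.51 to 12.26, 12.30 and 12.22, and the difference of effects was 1.24 (SE 0.19, adjusted p = 0.085). It was named for its other changes. Cluster 2554935 had 6.96 ± 0.36 and 7.32 ± 0.50 in MHH-CALL4 under DMSO and JQ1, and 10.50 ± 0.30 and 7.35 ± 0.087 in MUTZ-5. It reached the mean of 8 only through MUTZ-5 with DMSO, the group from which it fell (difference of effects -3.52, adjusted p = 0.013, and 0.055 without MUTZ-5 JQ1 replicate 2). Leaving out 1 array left between 0 and 4 calls of a difference, and every one of the 12 arrays lowered the count of 8 by more than 1.5 times.

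The comparison of the lines under DMSO asks how they differ at rest, and it gave the most calls. Of the 14267 clusters 1055 were called (7.39%), 462 higher in MUTZ-5 and 593 higher in MHH-CALL4, where 4.83% of all clusters were called (2.18% higher and 2.65% lower in MUTZ-5). At least 2-fold differences were called in 206 and 254 (1.10% and 1.40% of all clusters). The median difference was 0.015 log2 here and 0.014 over all. Leaving out 1 array gave 665 to 1076 calls, with a fall of more than 1.5 times without MHH-CALL4 DMSO replicate 1 (682), 2 (665) or 3 (698) or MUTZ-5 DMSO replicate 1 (673). The split moved when the third DMSO array of MUTZ-5 was left out (304 higher against 649 lower) and when the second was (364 against 342).

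SYNPO, the actin-associated protein synaptopodin, was highest in MUTZ-5 relative to MHH-CALL4 among clusters with 1 symbol. The MHH-CALL4 arrays read 7.43, 7.08 and 7.69 and those of MUTZ-5 read 11.48, 11.11 and 11.27, a 14.8-fold difference (3.89 log2, SE 0.22, adjusted p = 2.6e-06). A cluster annotated as CTC1, a telomere maintenance gene, differed by 2.94 (adjusted p = 3.7e-06). Another cluster of that symbol differed by -0.74, and whether the symbol was given to another copy of the gene was not tested. The Nudix hydrolase gene NUDT19 differed by 2.61 (adjusted p = 2.5e-05) and the lymphoid chromatin organiser SATB1 by 2.41 (adjusted p = 0.0007). The RNA LINC00958 differed by 2.31 (adjusted p = 4.3e-06) and SMC6, a subunit of a DNA repair complex, by 2.16 (adjusted p = 3.1e-05). CLEC2D (1.65) and NUB1 (1.60), which lowers ubiquitin-like proteins, followed. The naming rule took only clusters whose groups do not overlap.

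The cluster annotated as CIAO2A, which serves cytosolic iron-sulfur protein assembly, showed the widest difference the other way among those with 1 symbol. Its core cluster differed by -0.19 (adjusted p = 0.41), and whether the symbol was given to another copy of the gene was not tested. The extended-only cluster read 10.69, 10.91 and 10.36 on the MHH-CALL4 arrays, against 7.02, 6.90 and 6.60 on those of MUTZ-5, 14.1-fold lower there (3.81 log2, SE 0.21, adjusted p = 1.7e-06). PDGFA, a growth factor of connective tissue cells, had 10.61, 10.31 and 10.42 against 7.38, 7.14 and 6.79 (10.2-fold lower, adjusted p = 1.6e-06). Differences of its 3 extended-only clusters ran from -3.34 to -0.27, and 2 of them were called. DRC8, a component of ciliary dynein regulation, was lower in MUTZ-5 by 2.36 and 2.08 in its named clusters (adjusted p = 0.00038 and 9.3e-05), the kinase MAP3K1 by 2.18 (adjusted p = 1.5e-05), SLFN12L by 2.15 (adjusted p = 3.6e-06), the guanylate cyclase subunit GUCY1A1 by 2.06 (adjusted p = 0.0037) and SYK, the kinase of B cell receptor signalling, by 1.92 (adjusted p = 1.0e-05). Without symbols the ranges were wider. Cluster 2743738 stood at 11.91 ± 0.087 in MHH-CALL4 and 4.67 ± 0.33 in MUTZ-5 (7.24 log2 apart, adjusted p = 9.1e-09), and cluster 7385634 at 5.76 ± 0.51 and 12.21 ± 0.11 (6.45 log2 apart, adjusted p = 4.4e-07). Both reached the mean of 8 only through the line in which they were high. The same holds for named clusters of CIAO2A, PDGFA, GUCY1A1, SMC6, LINC00958, SATB1 and NUB1 and for the DRC8 cluster with 2.36. In these both group means of the lower line were below 8. Values of 4 to 6 lie below the median of all clusters (6.38), so the size of such differences is not exact.

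**Figure D4:**
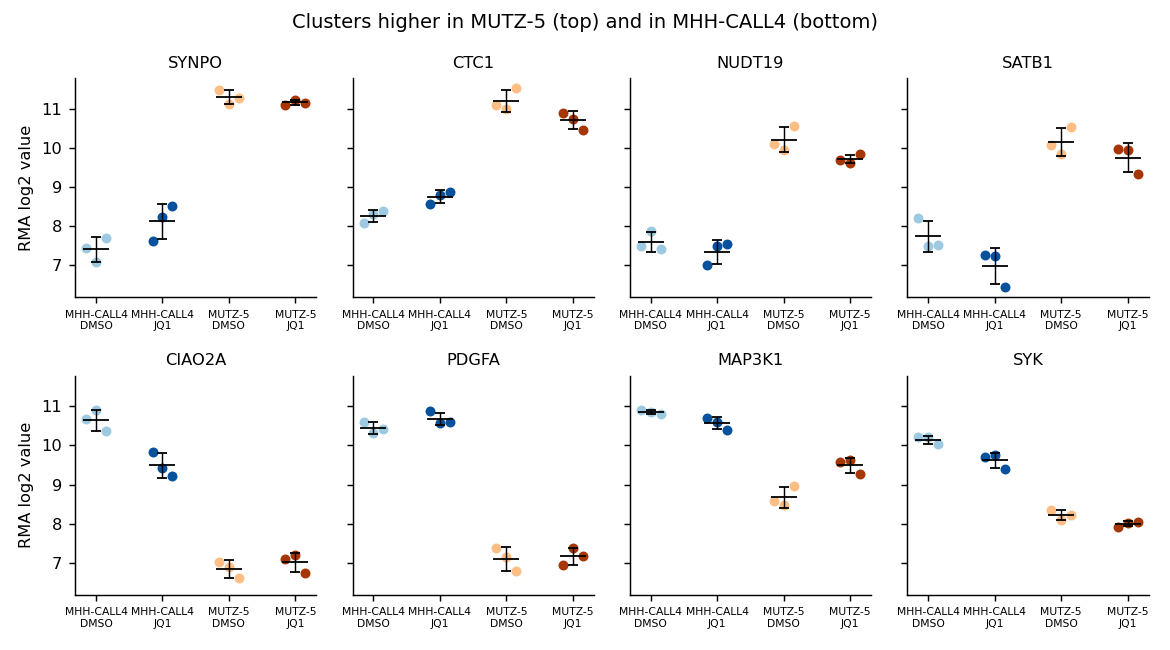
RMA log2 values (y axis) of 8 extended-only clusters in the 4 groups (x axis); points are arrays and the line with its bar is the mean ± SD of 3. The upper row (SYNPO, CTC1, NUDT19, SATB1) lies higher in MUTZ-5 and the lower row (CIAO2A, PDGFA, MAP3K1, SYK) in MHH-CALL4, under DMSO and under JQ1.

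Some clusters differed between the lines and also responded to JQ1. USP41P, ERVH48-1 and LINC01226 were lower in MUTZ-5 under DMSO 3.29-, 2.82- and 1.9-fold (adjusted p = 4.8e-05, 7.2e-05 and 0.0026) and fell in both. SMC6 and NUB1, higher in MUTZ-5, fell there under JQ1 by 1.03 (adjusted p = 0.017) and 0.85 (adjusted p = 0.021), with changes of 0.08 and 0.11 in MHH-CALL4. The differences of effects were not called (adjusted p = 0.29 and 0.28). MAP3K1, lower in MUTZ-5, rose there by 0.82 (adjusted p = 0.034), and CIAO2A, higher in MHH-CALL4, fell there by 1.16 (adjusted p = 0.015). Their differences of effects were not called either (adjusted p = 0.24 and 0.29). The contrasts of JQ1 and of the lines share the DMSO arrays, so they are not independent of each other.

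The gene classes are read against the call rates of all clusters with 1 symbol, which were 7.92% in MHH-CALL4, 5.06% in MUTZ-5 and 11.1% between the lines. Over all clusters the rates were 2.81%, 1.16% and 4.83%. Long non-coding RNAs made up 168 of the named clusters, of which 10.7%, 5.95% and 9.52% were called. In MHH-CALL4 14 fell, 4 rose and 150 did not pass, with a median of -0.005 log2, and in MUTZ-5 9 fell, 1 rose and 158 did not pass, with a median of -0.016. Between the lines 5 were higher and 11 lower in MUTZ-5. Of the 39 clusters whose names mark intergenic RNAs, 5 (12.8%) fell in each line and 0 rose. LINC01226, LINC00977 and both clusters of LINC00426 fell in both lines. LINC02591, named here after its values were seen, was the remaining fall in MHH-CALL4 and was not called in MUTZ-5. Only 1 of its 4 extended-only clusters was called in MHH-CALL4, where their changes ran from -1.13 to -0.22. LINC00494 was called in MUTZ-5 only (-0.62, adjusted p = 0.025), with -0.42 in MHH-CALL4 (adjusted p = 0.075), and the difference of effects was not called (adjusted p = 0.88). Of 78 clusters of antisense and divergent RNAs, 5 fell and 3 rose in MHH-CALL4 (10.3% called) and 2 fell and 1 rose in MUTZ-5 (3.85%). ADARB2-AS1 fell by 0.80 in MHH-CALL4 (adjusted p = 0.0094), and PXN-AS1 by 0.77 (adjusted p = 0.012, and 0.057 without MHH-CALL4 DMSO replicate 2). NORAD, an abundant cytoplasmic RNA, lay at 10.50 with changes of 0.17 in each line, neither called.

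**Figure D5:**
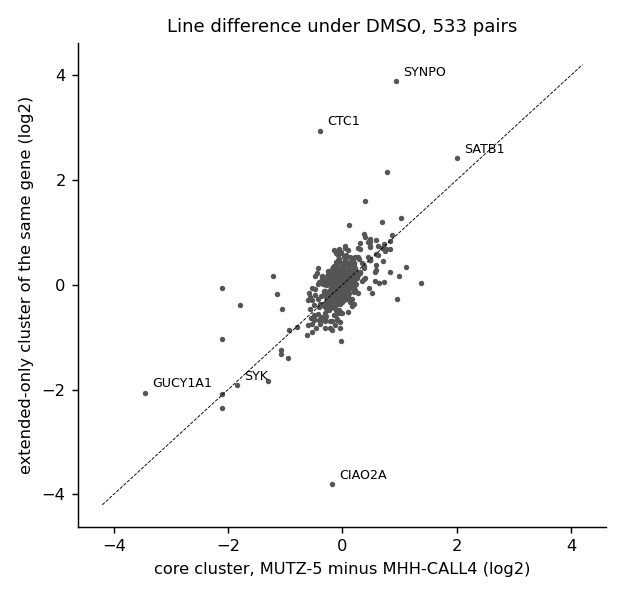
Difference of MUTZ-5 and MHH-CALL4 under DMSO (log2, 3 arrays each) for 533 extended-only clusters (y axis) and the core cluster of the same gene (x axis); the dashed line marks equal differences. Most pairs lie near the origin, SATB1 and SYK lie near the dashed line, and SYNPO, CTC1 and CIAO2A lie far from it.

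Neighbouring coding genes of such RNAs, taken from RefSeq and read at their core clusters, did not always move with them. ADARB2, which overlaps ADARB2-AS1, changed by 0.03 in MHH-CALL4 (adjusted p = 0.95), and PXN, which overlaps PXN-AS1, by 0.07 (adjusted p = 0.80). GSDMC, nearest to LINC00977, lay at 5.08 and changed by -0.11 (adjusted p = 0.71). SLC25A25-AS1 fell by 0.53 in MHH-CALL4 (adjusted p = 0.038), and SLC25A25, nearest to it, changed by -0.49 (adjusted p = 0.051). In MUTZ-5 they changed by -0.62 and 0.09. NOP14, which overlaps NOP14-AS1, was called lower in MHH-CALL4 by 0.62 (adjusted p = 0.022) and in MUTZ-5 by 0.69 (adjusted p = 0.02). The change of NOP14-AS1 itself is not given here. TNK2 was lower in MUTZ-5 by 0.62 (adjusted p = 0.0093) and the overlapping TNK2-AS1 by 0.55 (adjusted p = 0.019). Without MHH-CALL4 DMSO replicate 1 or 3 or MUTZ-5 DMSO replicate 2 or 3 the call of TNK2-AS1 was lost (0.051 to 0.073). Whether the probes separate the strands of overlapping genes is not stated in the sources used here.

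Of the 13 clusters of microRNA genes and hosts, 0 were called by limma in any comparison, and 3 in MHH-CALL4, 1 in MUTZ-5 and 1 between the lines had an unadjusted p under 0.05. MIR142 lay at 11.40 with values of 11.28, 11.48 and 11.48 in MHH-CALL4 with DMSO, 11.53, 11.45 and 11.42 with JQ1, 11.34, 11.23 and 11.42 in MUTZ-5 with DMSO and 11.52, 11.30 and 11.34 with JQ1. These groups overlap, and the changes were 0.05 (SE 0.12) and 0.06 (SE 0.12). MIR622 lay at 9.69, MIR197 at 9.41 and MIR99B at 9.37. MIR193A, MIR210, MIR320A, MIR27A, MIRLET7I, MIR219A1, MIR146A and MIR101-2 followed between 8.13 and 8.90. The probes of such a cluster read the longer precursor or host transcript as well, so these values are not levels of the printed mature forms. MIR146A, a feedback inhibitor of inflammatory signalling, changed by 0.41 in MHH-CALL4 (adjusted p = 0.26) and MIRLET7I, of the let-7 family, by -0.44 (adjusted p = 0.085). The 4 clusters of small nucleolar RNA genes and hosts were not called under JQ1, with 2 at an unadjusted p under 0.05 in each line. SNORD104 lay at 10.65 and SNORD60 at 9.85.

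Pseudogenes accounted for 62 clusters. Of these 1 rose and 2 fell in MHH-CALL4, 3 rose and 2 fell in MUTZ-5, and 8 were higher and 5 lower in MUTZ-5 than in MHH-CALL4 (4.84%, 8.06% and 21.0% called). TEX14BP was higher in MUTZ-5 by 1.18 (adjusted p = 0.00021) and LOC374443 by 0.85 (adjusted p = 0.0016). Of 37 clusters of ribosomal protein genes and pseudogenes 3 fell in MHH-CALL4 (8.11%) and 34 did not pass, with a median of -0.089, and in MUTZ-5 0 were called by limma (12 at an unadjusted p under 0.05, median -0.064). The 3 were RPL19 (-0.69, adjusted p = 0.017), RPL27 (-0.65, adjusted p = 0.031) and RPS13 (-0.63, adjusted p = 0.037). Each call was lost on leaving out any of the 3 DMSO arrays of MHH-CALL4 or certain others, with adjusted p from 0.050 to 0.11. RPS2 and RPS3A were not called. Of 3 histone clusters H2BC9 and H2BC20P rose in both lines. H2BC20P, a pseudogene of that family, rose by 0.83 (adjusted p = 0.029) and 0.86 (adjusted p = 0.041), and H3P44 was not called. In MHH-CALL4 the call of H2BC20P was lost without DMSO replicate 1, 2 or 3 or JQ1 replicate 1 or 2 (0.074 to 0.11), and in MUTZ-5 without 10 of the 12 arrays (0.057 to 0.15).

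Zinc finger genes, most of which encode DNA-binding repressors of the KRAB family, gave 75 clusters of 59 genes. In MHH-CALL4 3 rose, 5 fell and 67 did not pass (10.7% called), and in MUTZ-5 3 rose, 2 fell and 70 did not pass (6.67%). ZNF506 was called in both lines in a pair of its 4 clusters, and the rest were not called. The pair rose by 0.67 and 0.70 in MHH-CALL4 (adjusted p = 0.012 and 0.015) and by 0.78 and 0.64 in MUTZ-5 (adjusted p = 0.0086 and 0.036). ZNF618 fell by 0.94 (adjusted p = 0.001) and 0.78 (adjusted p = 0.0055). ZNF484 fell by 1.01 in MHH-CALL4 (adjusted p = 0.0042) and 0.88 in MUTZ-5 (adjusted p = 0.015, with 0.072 without MUTZ-5 JQ1 replicate 2 and 0.069 without replicate 3). Between the lines 6 were higher and 3 lower in MUTZ-5, with ZNF714 higher by 1.36 (adjusted p = 0.0034), ZNF585B by 1.24 (adjusted p = 0.0027) and ZNF737 by 1.16 (adjusted p = 0.0076). The 2 clusters of T cell receptor segments, TRBV23OR9-2 and TRBV30, were not called, and 1 of them had an unadjusted p under 0.05 in each of the JQ1 comparisons. The 74 clusters named by open reading frame or family gave 1 rise and 3 falls in MHH-CALL4 and 2 rises and 1 fall in MUTZ-5.

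For 533 of these clusters the same gene also has a core cluster on the same arrays. Pearson's r across the pairs was 0.61 for JQ1 in MHH-CALL4, 0.66 in MUTZ-5 and 0.61 for the lines. This r describes pairs measured on shared arrays, and genes are not independent replicates. Both clusters were called in 23, 11 and 28 pairs, always with the same sign. The extended-only cluster alone was called in 15, 13 and 27 pairs and the core cluster alone in 26, 11 and 28. PPM1L rose by 2.39 and 2.88 in its extended-only cluster and by 0.96 and 1.20 in its core cluster, all 4 called. LCP2 fell by 1.03 and 1.31 and its core cluster by 0.93 and 1.16, and the first of the IKZF3 clusters fell by 1.53 and 1.36 and its core cluster by 0.96 and 0.94. SYK was lower in MUTZ-5 by 1.92 and 1.85, and SATB1 higher by 2.41 and 2.0. These pairs gave the same direction, and both clusters were called.

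In other pairs the values lay further apart, and for 1 CTC1 cluster the signs differed. CIAO2A was 3.81 lower in MUTZ-5 in its extended-only cluster, whereas its core cluster differed by -0.19 (adjusted p = 0.41). CTC1 was 2.94 higher in one extended-only cluster and -0.74 in another (adjusted p = 0.037), with -0.39 in the core cluster (adjusted p = 0.079). SYNPO differed by 3.89 against 0.94 in the core cluster, SMC6 by 2.16 against 0.78, and NUB1 by 1.60 against 0.39 (adjusted p = 0.13). PPARGC1B fell by 1.58 in MHH-CALL4 and its core cluster by 0.45, which was not called (adjusted p = 0.067). The difference between a gene's clusters was not itself tested. The IDs of the CIAO2A cluster and of the CTC1 cluster with 2.94 lie far from those of the other clusters of their genes. Whether a symbol was given to a cluster at another copy of the gene was not tested.

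A gene with several extended-only clusters offers a check within these clusters, though they may read the same transcript. Of the 126 such genes, 17 had a call for JQ1 in MHH-CALL4, 11 in MUTZ-5 and 24 between the lines. At least 2 clusters were called in 7, 5 and 13 of them, and in 7, 5 and 11 these had the same sign. All 4 clusters of RRP15 fell in MHH-CALL4, by 0.95 to 1.37, and changed by -0.78 to -1.32 in MUTZ-5, where 2 were called. Both clusters of IKZF3, of LINC00426 and of SPN fell in both lines, and both of DENND1B, a regulator of membrane traffic, fell in MHH-CALL4 by 0.85 and 0.90. ACVR2B, an activin receptor, had 6 clusters between 8.55 and 10.43, none called under JQ1, with changes of -0.82 to -0.55 in MHH-CALL4 and -0.60 to -0.31 in MUTZ-5. All 6 were higher in MUTZ-5 under DMSO by 0.48 to 0.87, and 4 of them were called. The genes whose called clusters pointed opposite ways between the lines were CTC1 and CRYBB2P1, with -0.65 and 0.56 in the latter.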

How the data were processed

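RNA of 2 leukemia lines treated with JQ1 or DMSO was measured on Affymetrix exon arrays. The deposited values are log2 values, summarised and normalised by the authors with RMA in Affymetrix Expression Console, per the labels and the submitters' processing notes. Versions and the genome build of the array's clusters are not given in the sources used here. The 24 deposited columns hold core and extended summaries of 12 arrays. Extended columns gave all values here, and core columns only served to see which clusters have a core value. The number of arrays limits the precision.

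All 133672 extended clusters were fitted with limma 3.58.1 (R 4.3.3), with 1 mean per group over 12 arrays, empirical Bayes variances and Benjamini-Hochberg adjustment over all clusters. A cluster was called at an adjusted p under 0.05, two-sided. The level of 8 uses the mean over all 12 arrays, to which the groups contribute equally, so it is none of the contrasts. The fit was tested on simulated data for 133672 clusters: it recovered 5% of changes of 0.5 log2, 61.9% of changes of 1 and 99% of changes of 2 in MHH-CALL4, with 9 false among 176 calls, and 6%, 68.9% and 96.9% in MUTZ-5, with 10 false among 181. The simulated noise was independent between clusters, whereas 37.3% of the variation within groups here lay on 1 component. Changes were added to any cluster at 8 or above, core clusters with their smaller residual SD (0.109 against 0.214) included. The simulation therefore gives neither the recovery nor the false calls of the 14267 clusters.

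Gene names come from the array's annotation table, updated through gene IDs to RefSeq GRCh38.p14. Of 1402 clusters with 1 gene 1395 matched and 7 kept the array's name. Named were, among clusters with 1 symbol, the 10 with the highest level, the 10 largest called changes each way per line for JQ1 and the 8 largest between the lines (groups not overlapping), up to 4 calls per gene class, and 3 clusters on each side of the level. At most 2 clusters without a symbol were named each way per comparison. XIST and Y-linked genes were left out. The members and lists were chosen with earlier results of these data known. Alternatives were other scalings, filters, variance models, levels, a replicate block and leaving out each array.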

Additional observations from a re-analysis of the deposited data

Results flagged for a closer look

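The JQ1 effect differed between the lines, by the test of the difference itself, in 8 of the 14267 clusters (limma, adjusted p under 0.05), where 849 had an unadjusted p under 0.05. With the replicate number as a block the count was 0. The 4 largest named by cluster ID follow, and each of their calls was lost without at least 1 array.

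Cluster 2554935 changed by 0.36 in MHH-CALL4 and by -3.16 in MUTZ-5, a difference of -3.52 (limma, adjusted p = 0.013). It reached the mean of 8 only through MUTZ-5 with DMSO. Without MUTZ-5 JQ1 replicate 2 the adjusted p was 0.055. Cluster 3958229 fell by 0.83 and 2.51, a difference of -1.68 (adjusted p = 0.014 by limma). Leaving out any of 7 arrays ended this call, namely MHH-CALL4 DMSO replicate 1 or 3, MHH-CALL4 JQ1 replicate 2, MUTZ-5 DMSO replicate 1 or 3 or MUTZ-5 JQ1 replicate 1 or 2 (adjusted p from 0.052 to 0.069). Cluster 3057618 changed by -2.40 and -0.66, a difference of 1.73 (adjusted p = 0.041 by limma), and its call was lost without any of the 12 arrays (adjusted p from 0.062 to 0.15). This cluster reached the mean of 8 only through MHH-CALL4 with DMSO (10.21), the group from which it fell. Cluster 3680103 changed by -2.38 and -0.70, a difference of 1.68 (adjusted p = 0.034 by limma), and its call was kept only without MHH-CALL4 JQ1 replicate 1 (adjusted p from 0.059 to 0.12 without each of the others).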

How the results depend on the processing

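Cyclic loess and median centring kept all 4 counts of calls within 1.5 times. Of the calls for JQ1 in MHH-CALL4, cyclic loess gave 932 with 732 shared and median centring 787 with 702 shared, and in MUTZ-5 these were 510 with 371 and 366 with 361. For JQ1 in MHH-CALL4 the 741 calls became 1193 when only clusters with a mean of at least 6 were tested, 1300 with a trended, robust variance, 196 with only the 6 arrays of the line, 1271 at a level of 7 and 329 at a level of 9. For MUTZ-5 the 374 became 653, 768 and 59 in the first 3 of these and 178 at a level of 9. Between the lines the 1055 became 662 with only the 6 DMSO arrays, 2038 at a level of 7 and 443 at 9. The 8 differences of effects became 15 with a mean of at least 6, 22 with the trended variance, 15 at a level of 7 and 3 at 9. The number of clusters itself was 33606 at a level of 7 and 4686 at 9. A higher or lower level changes the clusters counted, and fewer arrays leave fewer degrees of freedom. For the other settings the cause was not tested.

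Without 1 array the counts ranged from 350 to 869 in MHH-CALL4, 145 to 356 in MUTZ-5, 665 to 1076 between the lines and 0 to 4 for the difference of effects. With the replicate number as a block they were 179, 59, 797 and 0. Same-numbered deviations within MHH-CALL4 correlated at 0.125, -0.0633 and 0.164, and within MUTZ-5 at -0.155, -0.227 and -0.404. So few correlations cannot decide whether the numbers pair the samples within a line. Across the lines the JQ1 arrays of the same number correlated at 0.257, 0.385 and 0.503, and those of different numbers at -0.404 to 0.13. Deviations in a group are taken from the mean of its own arrays, so these correlations are not independent of each other. They are too few to decide whether the number marks something shared by the JQ1 arrays, and this was not tested. The DMSO arrays of the same number correlated at -0.129, -0.015 and -0.212. Of 123 named calls 68 were kept in all 17 settings, 55 were lost in at least 1 and 0 changed sign. The block ended 51. The values carry no detection call, so signal over background is unknown for each group, and 12552 of the clusters have no gene name here.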
